A study of Mus musculus with 3 samples.

Results

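The forkhead transcription factors of the mouse soft palate were followed as a family of 41 genes out of the 32285 genes in the count tables. A gene was taken as a member when its symbol had the form of a forkhead gene name from *Foxa* to *Foxs*, and *Foxd1*, *Foxf1* and *Foxf2* were not taken. The rule used gene symbols and no measured value, though it was set with earlier results of these data known. All 41 members were found in the GENCODE annotation of GRCm38 (mm10) by their identifiers. Embryos of the C57BL/6 strain at E14.5 gave 3 single-cell RNA libraries, 2 labelled control and 1 labelled Osr2-Cre;Alk5fl/fl. *Alk5* is the older name of *Tgfbr1*, a type I receptor for TGF-β. According to the study's methods, the controls were littermates with a floxed *Tgfbr1* allele (*Tgfbr1* fl/fl or fl/+) without the Cre, and embryos of either sex were used. *Osr2*-Cre deletes in the mesenchyme of the palate, so the deletion was aimed at mesenchymal cells and not at myogenic cells. Whether the control libraries came from different embryos, and how many embryos each library pooled, is not given in the sources used here, so that differences between libraries may be partly technical.

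Forkhead proteins bind DNA through a winged-helix domain. *Foxa* members open chromatin in endoderm-derived epithelium, *Foxe1* is required for palate closure and thyroid development, and *Foxj1* drives the program of motile cilia. *Foxc1* and *Foxc2* act in cranial mesenchyme and in vessels, *Foxd3* in neural crest and its glial derivatives, and *Foxm1* in the transcription of genes for mitosis. The Foxo proteins are held in the cytoplasm when insulin-like signals activate Akt, and the Foxp proteins are repressors with a broad distribution.

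Levels are counts of unique molecular identifiers (UMIs) per 1000000 UMIs (CPM), where the cells that a library holds of a type were added up first. Cells were gated by markers, none of which is a forkhead gene: at least 3 distinct markers of a type and at least 5 marker UMIs per 10000. Before filtering, the libraries had a median of 5039 to 6986 UMIs per barcode. After filtering, control 1 kept 2058 cells, control 2 kept 3689 and the mutant kept 7514. Gated palatal mesenchyme made up 70.0%, 76.5% and 71.6% of them. The libraries differed in their other cells. Neuronal-gated cells numbered 18, 15 and 313 in control 1, control 2 and the mutant, cartilage-gated cells 20, 20 and 193, and granulocyte-gated cells 59 in control 1 and 0 in the other two. From 18 to 49 barcodes were shared by a pair of libraries before filtering, and from 11 to 37 among kept cells. *Tgfbr1* itself stood at 56.2, 60.1 and 49.4 CPM in the mesenchyme of control 1, control 2 and the mutant. The counted reads come from the 3′ end of the transcript and not from the floxed exon, so this level does not check the deletion.

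Here 3 members are shown by their promoters, because *Foxd3* stood out in glia, *Foxa1* in epithelium, and *Foxc1* had the largest log2 ratio of the mutant to the control mesenchyme among members at 10 CPM. Each line gives the 250 bases before the RefSeq start of transcription on GRCm38.p6, read 5′ to 3′ on the strand of the gene, and capitals mark a match to the forkhead core TGTTTAC or to its reverse complement GTAAACA. The windows are chr4:99656049-99656298 on the plus strand for *Foxd3*, chr12:57546112-57546361 on the minus strand for *Foxa1*, and chr13:31806396-31806645 on the plus strand for *Foxc1*. In GENCODE the *Foxa1* gene reaches from 57540628 to 57546916, so its whole window lies inside the annotated gene. The *Foxc1* gene starts at 31806633 there, so the last bases of its window lie inside the gene.
Foxd3: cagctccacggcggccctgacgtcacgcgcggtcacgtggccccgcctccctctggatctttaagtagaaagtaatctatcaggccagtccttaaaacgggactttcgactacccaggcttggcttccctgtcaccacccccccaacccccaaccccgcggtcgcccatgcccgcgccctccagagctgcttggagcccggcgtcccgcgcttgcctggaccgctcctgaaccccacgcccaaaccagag
Foxa1: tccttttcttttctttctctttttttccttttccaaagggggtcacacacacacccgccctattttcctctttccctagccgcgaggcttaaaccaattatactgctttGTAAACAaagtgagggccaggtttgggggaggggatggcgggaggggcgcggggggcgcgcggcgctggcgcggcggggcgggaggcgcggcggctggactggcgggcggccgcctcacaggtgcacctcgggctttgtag
Foxc1: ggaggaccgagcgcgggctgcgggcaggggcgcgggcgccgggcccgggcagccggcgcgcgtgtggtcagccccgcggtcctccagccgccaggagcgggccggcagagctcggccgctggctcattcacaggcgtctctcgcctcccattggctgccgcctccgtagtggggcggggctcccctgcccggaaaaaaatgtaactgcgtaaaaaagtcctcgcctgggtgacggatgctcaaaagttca
The *Foxa1* window held 1 match to the forkhead core, and the other two windows held none. A promoter entry existed for 26 members, with 31 windows between them. Of these 31, 1 held this core, that of *Foxa1*, which is close to the 3.17% of all 32851 windows. The letters CAGAC or GTCTG, a SMAD box, stood in 8 of the 31 windows and in 42.19% of all windows, and in none of the 3 printed here. These matches describe the letters in the windows and nothing about binding.

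Of the 41 members, 20 reached a mean of at least 10 CPM in a gated type. In the mesenchyme, *Foxn3* had 152 and 158 CPM in the controls and 137 CPM in the mutant, and in the epithelium *Foxp1* had 201, 245 and 270 CPM. These levels are not used to rank one gene above another. Of the 20, 5 (*Foxn3*, *Foxo3*, *Foxp1*, *Foxp2* and *Foxp4*) had UMIs in every library of each of the 9 types that held at least 10 cells in each library. Beyond these 20, members that stayed below 10 CPM with more than 20 UMIs in all had a highest mean of 5.11 CPM for *Foxa2* (epithelial), 4.64 for *Foxl1* (cartilage), 4.58 for *Foxl2* (myogenic), 3.85 for *Foxd2* (glial), 1.97 for *Foxo6* (tendon part of the mesenchyme), 1.83 for *Foxn4* (epithelial) and 1.57 CPM for *Foxs1* (cartilage). A further 7 members, *Foxa3*, *Foxn1*, *Foxr1*, *Foxb1*, *Foxi1*, *Foxd4* and *Foxp3*, had between 1 and 16 UMIs. The remaining 6, *Foxe3*, *Foxi3*, *Foxi2*, *Foxh1*, *Foxb2* and *Foxr2*, had no UMI in a kept cell.

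**Figure D1:**
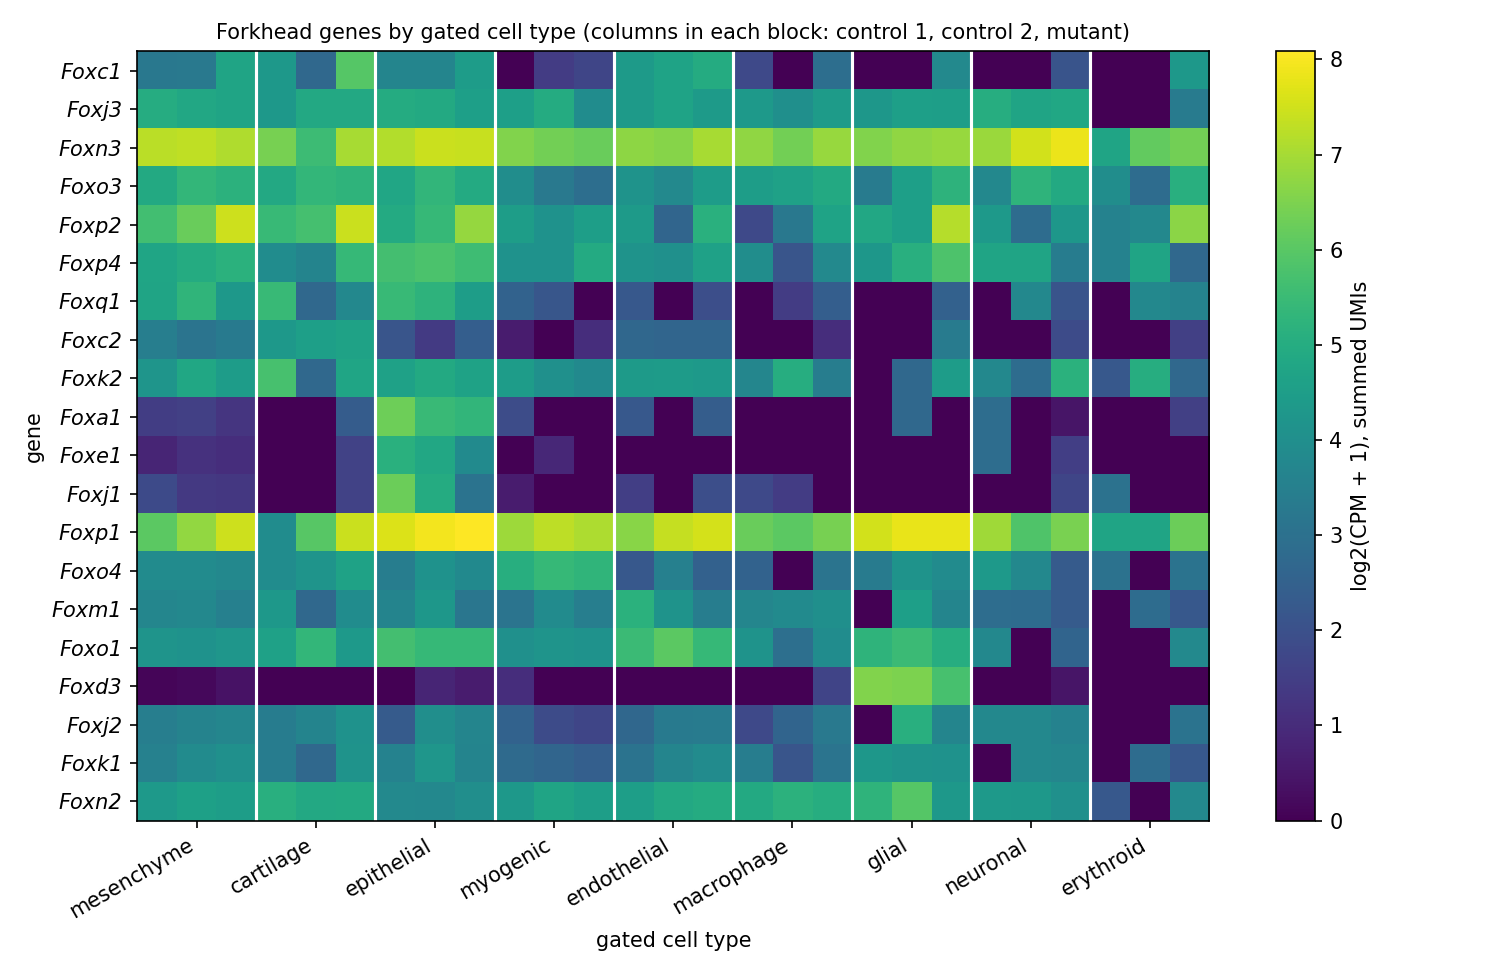
Each row is 1 of the 20 forkhead genes that reached a mean of 10 CPM, each block of 3 columns is a gated cell type (control 1, control 2, mutant from left to right), and the colour is log2(CPM + 1) of summed UMIs. *Foxd3* is brightest in the glial block, *Foxa1*, *Foxe1* and *Foxj1* in the epithelial block, and *Foxn3* and *Foxp1* are bright in every block.

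The epithelium differed from the mesenchyme in 9 forkhead genes. *Foxa1*, *Foxe1* and *Foxj1* were many fold higher in epithelial-gated cells than in the mesenchyme, *Foxo1*, *Foxp1* and *Foxp4* were higher by a smaller step, and *Foxp2*, *Foxc2* and *Foxn2* were lower. In all, 6 of the 41 members were called higher and 3 lower, with 20 passing the filter on low counts. Among these 20, *Foxa1*, *Foxe1* and *Foxj1* passed through their epithelial levels alone, so their calls there were favoured in advance. These calls were kept without the filter. Over all 11371 genes of this fit, 11.8% were called higher and 13.1% lower at an adjusted p of at most 0.05.

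*Foxa1*, a pioneer factor of endodermal epithelium, had 78.3 CPM in the epithelium of control 1, 43.8 in control 2 and 38.6 in the mutant. Its mesenchymal levels were 1.76, 1.86 and 1.39 CPM, so the groups did not overlap. The difference was 4.83 on the log2 scale (SE 0.30, edgeR adjusted p = 1.48e-13). *Foxe1* stood at 34.2, 28.0 and 13.6 CPM in the epithelium against 0.805 to 1.24 CPM in the mesenchyme, a log2 fold change of 4.34 (SE 0.37, edgeR adjusted p = 2.77e-09). Among epithelial cells, *Foxe1* was seen in 36.5% of 203 control 1 cells (exact 95% interval 29.8 to 43.5), in 24.6% of 366 control 2 cells (20.3 to 29.3) and in 13.5% of 502 mutant cells (10.7 to 16.8). No macrophage-gated cell of any library had a *Foxe1* UMI. With all cells brought down to a depth of 2000 UMIs, the *Foxe1* shares were 4.55%, 4.92% and 1.82%.

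**Figure D2:**
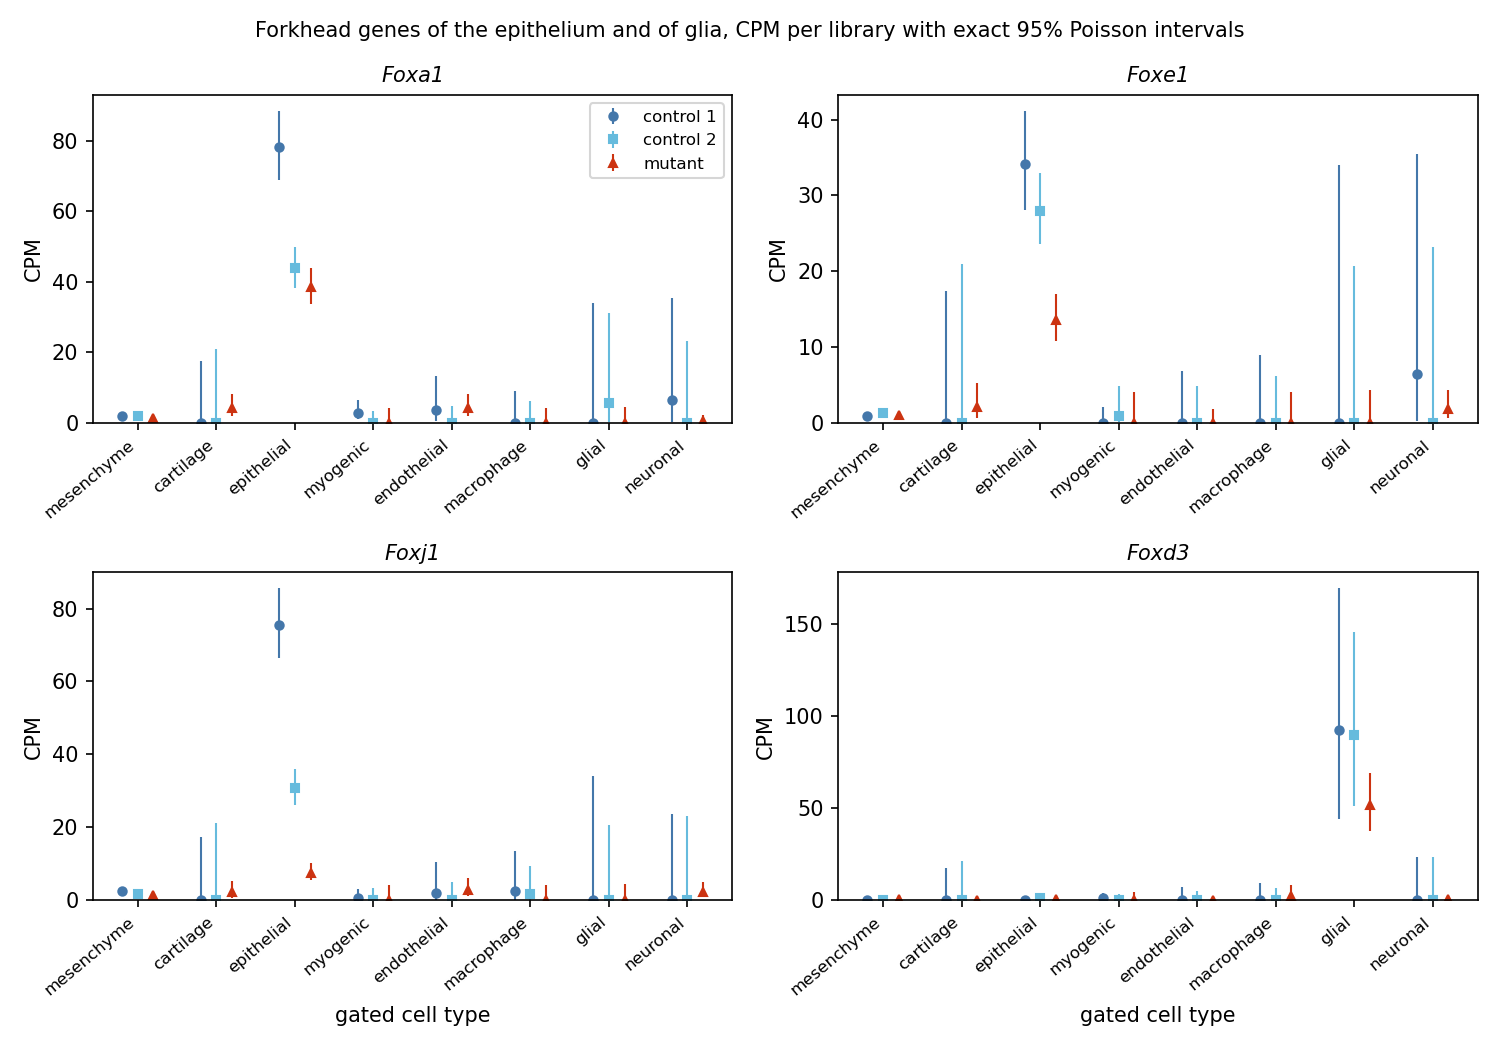
Points give the CPM of *Foxa1*, *Foxe1*, *Foxj1* and *Foxd3* in each gated type and library, with exact 95% Poisson intervals, which cover counting error only. *Foxa1*, *Foxe1* and *Foxj1* stand above their other types in the epithelium, and *Foxd3* in the glia. The mutant epithelium lies below both controls for *Foxa1*, *Foxe1* and *Foxj1*, for *Foxa1* by less than the gap between the controls.

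*Foxj1*, the regulator of motile cilia, differed between the libraries. It had 75.5 CPM in the epithelium of control 1, 30.7 in control 2 and 7.48 in the mutant, against 1.48 to 2.49 CPM in the mesenchyme, and the log2 fold change was 3.87 (SE 0.39, edgeR adjusted p = 3.18e-09). Its UMIs sat in few cells. Epithelial cells with a *Foxj1* UMI numbered 25 in control 1, 32 in control 2 and 18 among mutant cells, and the 5 cells with most of them held 58.8%, 58.6% and 65.1% of the *Foxj1* UMIs. A single epithelial cell held up to 33 of them in control 1, up to 29 in control 2 and up to 18 among the mutant cells. By contrast, the highest *Foxj1* count in a mesenchymal cell was 1 in either control and 5 in the mutant.

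Genes of motile cilia that *Foxj1* is known to switch on were found in the same epithelial cells. The list held 12 genes, among them those for outer dynein arms (*Dnah5*, *Dnah9*, *Dnaic1*), radial spokes (*Rsph1*, *Rsph4a*) and ciliary assembly (*Ccdc39*, *Ccdc40*). Summed over the list, epithelial cells with a *Foxj1* UMI had 534 and 193 CPM in the controls and 50.0 CPM in the mutant, and epithelial cells without one had 11.8, 8.45 and 7.10 CPM. Mesenchymal cells with a *Foxj1* UMI had 14.0, 12.1 and 10.2 CPM, close to the 12.2, 12.8 and 9.21 CPM of mesenchymal cells without one. No test was run, since the cells of a library are not replicates. One gene of the list passed the filter in the fit of cell types, *Cfap126*, a gene of the ciliary axoneme, and it was called higher in the epithelium by 2.51 on the log2 scale (SE 0.47, edgeR adjusted p = 0.000132), beside a median of -0.03 over all genes. Which cell type carried *Cfap126* past the filter is not given, so its epithelial call may have been favoured in advance. *Cfap126* was also called higher in macrophages, by 2.23 (SE 0.78, edgeR adjusted p = 0.0203) from 4, 3 and 2 UMIs, where *Foxj1* was not called (log2 fold change -0.44, SE 1.33).

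The other epithelial differences were smaller. *Foxo1* had 49.4, 41.6 and 41.6 CPM in the epithelium against 16.6 to 18.1 in the mesenchyme, a log2 fold change of 1.27 (SE 0.19, edgeR adjusted p = 4.01e-06). *Foxp1* rose by 1.04 (SE 0.24, edgeR adjusted p = 0.00148) and *Foxp4* by 0.68 (SE 0.22, edgeR adjusted p = 0.0238). *Foxc2* fell by 1.64 (SE 0.32, edgeR adjusted p = 0.000253), *Foxp2* fell by 0.81 (SE 0.22, edgeR adjusted p = 0.00542) and *Foxn2* fell by 0.72 (SE 0.19, edgeR adjusted p = 0.00378). Each of the 6 moved the same way in all 3 libraries. The smaller of these calls were lost when a control was left out of the edgeR fit. *Foxp4* had a log2 fold change of 0.54 (edgeR adjusted p = 0.129) without control 1 and of 0.64 (0.175) without control 2. Without control 2, *Foxp2* had -0.74 (edgeR adjusted p = 0.0844) and *Foxn2* had -0.61 (0.0994). Within the epithelium, *Foxq1* had 73.3, 54.2 and 31.4 CPM in cells with at least 2 of the periderm markers *Krt6a*, *Krt17* and *Grhl3*, and 28.1, 23.7 and 15.6 CPM in the other epithelial cells, higher in the periderm of each library.

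The genes of the Foxo pathway were looked at through a list of 20 targets and inputs. In the epithelium 6 of the 17 that passed the filter were called higher and 2 lower, with a median log2 fold change of 0.25 beside -0.03 over all genes. *Cdkn1a*, the cell cycle inhibitor p21, was higher by 3.37 (SE 0.39, edgeR adjusted p = 4.72e-08), with 242, 193 and 209 CPM in the epithelium and 13.8 to 27.3 in the mesenchyme. *Gadd45a* and *Sesn2*, genes of the stress response, were higher by 1.49 and 1.07, and *Klf2*, a factor known from endothelium, fell by 1.52 on the log2 scale.

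*Foxd3*, which specifies neural crest and its glial lineage, was the 1 member called higher in the glia. The glial-gated cells had 92.1, 89.5 and 51.5 CPM of *Foxd3* in control 1, control 2 and the mutant, from 10, 16 and 44 UMIs, and no other type reached a mean of 1 CPM. The log2 fold change over the mesenchyme was 8.18 (SE 0.62, edgeR adjusted p = 4.35e-10). *Foxd3* passed the filter on low counts through its glial level alone, so a call in this direction was favoured in advance. The call was kept without that filter. In control 1, 6 of 10 glial cells held a *Foxd3* UMI, as did 11 of 30 in control 2 and 35 of 155 in the mutant, against no macrophage-gated cell of the controls and 2 of 142 of the mutant. The glial cells had a median of 12115, 4838 and 3084 UMIs in control 1, control 2 and the mutant, so their shares were taken at unlike depths. *Foxq1* was called lower in the glia, with no UMI in the glia of either control and 4.68 CPM in the mutant. Its log2 fold change was -2.77 (SE 0.73, edgeR adjusted p = 0.0167), and the call was lost without control 2 (edgeR adjusted p = 0.206) and without the mutant (0.0562). These were the only 2 calls among the 20 members tested in glia by edgeR, where 4.06% of all genes were called higher and 1.93% lower.

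Endothelial cells had more *Foxo1* and *Foxc1* than the mesenchyme. *Foxo1*, required for the formation of vessels, had 44.3, 65.0 and 41.7 CPM in endothelial-gated cells, a log2 fold change of 1.53 (SE 0.22, edgeR adjusted p = 2.05e-06). In the order of its levels the endothelium led the epithelium, glia and cartilage, and neighbours in that order overlapped in their range over libraries. *Foxc1* had 20.3, 24.7 and 30.5 CPM, a log2 fold change of 0.83 (SE 0.30, edgeR adjusted p = 0.0328), which was lost without control 1 (edgeR adjusted p = 0.138) or control 2 (0.298). *Foxp2* fell by 2.38 (SE 0.30, edgeR adjusted p = 1.53e-07) and *Foxq1* fell by 3.33 (SE 0.53, edgeR adjusted p = 7.76e-06). *Foxo3* fell by 0.97 (SE 0.25, edgeR adjusted p = 0.00294; 0.0977 without control 2), and *Foxo4* fell by 1.18 (SE 0.38, edgeR adjusted p = 0.016; 0.0537 without control 1 and 0.224 without the mutant). With 2 of the 20 members tested called higher and 4 lower, the background was 16.6% and 18.8% of all genes tested.

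Among the Foxo list in endothelium, 2 of 17 tested genes were called higher, *Klf2* by 1.82 and the thioredoxin inhibitor *Txnip* by 1.09 on the log2 scale. Called lower were 4, with *Irs2* (log2 fold change -1.72), the insulin receptor substrate, *Sesn2* (-1.55), *Sesn3* (-1.33) and *Gadd45b* (-0.80). The list's median was 0.07 beside -0.08 for all genes.

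Mural cells, the pericytes of vessels, were tested on 2 libraries because control 2 had 7 of them. *Foxc2* had 14.7 CPM in control 1 from 2 UMIs and 52.1 CPM in the mutant from 19 UMIs, and was called higher than in the mesenchyme by 1.91 (SE 0.47, edgeR adjusted p = 0.0244; 0.0602 in the fit without control 2). Background calls in this comparison were 1.52% of genes higher and 0.176% lower. No member was called lower by edgeR, where 3 had an unadjusted p under 0.05 and DESeq2 called 0.

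*Foxo4* was higher in myogenic cells than in the mesenchyme. It had 32.5, 41.6 and 38.5 CPM there in control 1, control 2 and the mutant, above every other gated type of the same libraries, and the mesenchyme lay between 12.7 and 14.1 CPM. Its log2 fold change was 1.77 (SE 0.25, edgeR adjusted p = 1.36e-06). In the order of *Foxo4* levels the next type, cartilage at a mean of 18.5 CPM, did not overlap with it. *Foxp1* was called higher by 0.63 (SE 0.25, edgeR adjusted p = 0.0476), in 2 of 3 libraries, and lost the call without control 1 (edgeR adjusted p = 0.308) or control 2 (0.309).

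Many members were lower in myogenic cells. Among the called members the largest differences were those of *Foxc2* (log2 fold change -3.74, SE 0.68, edgeR adjusted p = 5.73e-05), *Foxc1* (-3.24, SE 0.60, edgeR adjusted p = 7.42e-05) and *Foxq1* (-2.79, SE 0.47, edgeR adjusted p = 2.39e-05). *Foxc1* had 0, 1.73 and 2.20 CPM in myogenic cells. *Foxp2* fell by 1.74 (SE 0.27, edgeR adjusted p = 8.51e-06), with 21.7, 16.5 and 22.0 CPM, and did not share the high level of the mutant mesenchyme. *Foxo3* fell by 1.34 (SE 0.27, edgeR adjusted p = 0.000188), with 14.6, 8.67 and 6.60 CPM. Smaller decreases of *Foxk1* (-0.97), *Foxj2* (-1.27) and *Foxn3* (-0.51) had edgeR adjusted p values of 0.0241, 0.0237 and 0.0384, and 0.15, 0.16 and 0.192 without control 2. Altogether 2 of the 20 members tested were called higher and 8 lower, where all genes tested gave 16.6% and 22.4%. Of the Foxo list, 4 of 17 were called higher, led by *Cdkn1a* (log2 fold change 4.07) and *Gadd45a* (1.81), and 6 lower, among them *Klf2* (-1.82) and *Irs2* (-1.51). Its median was -0.48 beside -0.18 over all genes.

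In macrophage-gated and neuronal-gated cells, 6 and 8 of the 20 members tested were called lower than in the mesenchyme. In macrophages *Foxn2* was called higher by 0.92 (SE 0.24, edgeR adjusted p = 0.00247), with 29.1, 35.4 and 31.5 CPM against 19.6 to 23.1 in the mesenchyme. *Foxc2* (log2 fold change -3.80), *Foxq1* (-2.95), *Foxp2* (-2.67), *Foxc1* (-1.79), *Foxp4* (-1.25) and *Foxo4* (-1.21) were called lower there, with edgeR adjusted p values from 2.42e-07 for *Foxp2* to 0.0492 for *Foxo4*. *Foxp4* lost its call without control 2 (edgeR adjusted p = 0.181), and *Foxo4* without control 1 (0.086) or control 2 (0.349). The background was 22.5% higher and 22.7% lower. In neuronal cells 8 members were called lower, with log2 fold changes of -3.18 for *Foxp2*, -2.83 for *Foxc1*, -2.50 for *Foxq1*, -2.27 for *Foxc2*, -1.67 for *Foxo1*, -1.49 for *Foxp4*, -1.24 for *Foxo4* (lower in 2 of 3 libraries) and -1.21 for *Foxm1*. Most neuronal cells came from the mutant, and without that library the edgeR adjusted p was 0.358 for *Foxo1*, 0.82 for *Foxp4*, 0.145 for *Foxq1*, 0.624 for *Foxm1* and 0.991 for *Foxo4*, whose difference turned to 0.02. *Foxm1* also lost its call without control 2 (edgeR adjusted p = 0.095). No member was called higher in neuronal cells by edgeR, where 0 had an unadjusted p under 0.05 and DESeq2 called 0, and the background was 19.2% higher and 19.3% lower.

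The Foxo list had 7 of 17 genes higher and 4 lower in macrophages, with a median of 0.08 beside -0.12 for all genes, led by *Cdkn1a* at 3.85 and *Sesn3* at -2.26 on the log2 scale. In neuronal cells 6 were higher and 5 lower, with a median of -0.12 beside -0.09, led by *Klf2* at -3.22 and *Gadd45b* at -1.86.

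The study centres on perimysial cells, which lie beside the developing muscles, and marked them by *Tbx15*, *Hic1* and *Aldh1a2*. Perimysial cells were gated here within the mesenchyme by *Hic1*, *Ebf2*, *Agtr2*, *Meox1*, *Ebf3* and *Islr*, so they may differ from the study's population. Within the palatal mesenchyme, these perimysial-gated cells had more of 5 forkhead genes. *Foxc1*, *Foxc2*, *Foxp1*, *Foxp2* and *Foxp4* were called higher there than in the remaining mesenchyme, and *Foxq1* was called lower. The comparison used 212, 160 and 271 perimysial-gated cells of control 1, control 2 and the mutant and 955, 2190 and 4400 remaining cells. Of the 41 members 16 passed the filter, and 5 were called higher and 1 lower, where 4.23% of all 11209 genes were called higher and 2.74% lower.

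*Foxc1* had 18.2, 27.5 and 52.8 CPM in the perimysial cells and 7.92, 7.97 and 24.9 CPM in the remaining mesenchyme, more than 2 fold higher in each library. The log2 fold change was 1.22 (SE 0.19, edgeR adjusted p = 0.000108). *Foxc2* had 15.1, 13.3 and 22.5 CPM against 10.2, 7.54 and 8.81, a log2 fold change of 0.91 (SE 0.22, edgeR adjusted p = 0.00852; 0.0827 without control 2 and 0.331 without the mutant). Both genes have single-exon transcripts. *Foxc1* lies on chromosome 13, 245.7 kb from *Foxq1*, which moved the other way, and *Foxc2* lies on chromosome 8 with *Foxl1* at a distance of 9 kb.

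The 3 Foxp genes above 10 CPM were higher together in perimysial cells. *Foxp1* had 92.8, 196 and 291 CPM against 64.2, 102 and 181 in the remaining mesenchyme, a log2 fold change of 0.68 (SE 0.12, edgeR adjusted p = 0.000648). *Foxp2* had 65.6, 175 and 246 CPM against 49.9, 70.8 and 182, a log2 fold change of 0.66 (SE 0.14, edgeR adjusted p = 0.00453), which was 0.37 (edgeR adjusted p = 0.277) without control 2. *Foxp4* had 35.3, 49.3 and 60.5 CPM against 26.6, 28.8 and 34.2, a log2 fold change of 0.64 (SE 0.13, edgeR adjusted p = 0.00212; 0.0789 without control 2 and 0.085 without the mutant). Each was higher in perimysial cells of all 3 libraries. The highest mean of *Foxp4* was 65.7 CPM in the tendon part of the mesenchyme, a part of 19, 68 and 87 cells that was not tested.

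*Foxq1* had 5.55, 12.3 and 12.1 CPM in perimysial cells and 27.9, 35.1 and 19.1 CPM in the remaining mesenchyme. Its log2 fold change was -1.48 (SE 0.28, edgeR adjusted p = 0.00117; 0.0616 without control 2). Midline cells, gated by *Tbx22*, *Shox2* and other genes, had the opposite: 50.8, 61.9 and 38.7 CPM of *Foxq1*, a log2 fold change of 0.89 (SE 0.18, edgeR adjusted p = 0.0167; 0.272 without control 2). *Foxq1* was the 1 member called in the midline, where 0.509% of all genes were called higher and 0.375% lower. No member was called lower there by edgeR, where 3 had an unadjusted p under 0.05 and DESeq2 called 0.

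Osteogenic cells had less of *Foxp1*, *Foxp2*, *Foxp4*, *Foxn3* and *Foxq1* and more of *Foxo1* and *Foxn2* than the remaining mesenchyme. *Foxp1* had 23.7, 26.2 and 71.1 CPM, a log2 fold change of -1.20 (SE 0.16, edgeR adjusted p = 3.4e-06). *Foxp2* fell by 0.69 (SE 0.18, edgeR adjusted p = 0.00591; 0.164 without the mutant) and *Foxp4* fell by 0.65 (SE 0.17, edgeR adjusted p = 0.00697; 0.18 without the mutant). *Foxq1* had 3.39, 11.2 and 8.78 CPM, and its log2 fold change was -1.38 (SE 0.31, edgeR adjusted p = 0.00194). *Foxn3* fell by 0.67 (SE 0.15, edgeR adjusted p = 0.00221; 0.0522 without control 2 and 0.109 without the mutant). *Foxo1*, known to act in osteoblasts, had 16.1, 33.7 and 28.0 CPM against 17.6, 16.8 and 17.2, a log2 fold change of 0.72 (SE 0.19, edgeR adjusted p = 0.00784; 0.0512 without control 2 and 0.572 without the mutant), and was higher in 2 of 3 libraries. *Foxn2* was higher by 0.48 (SE 0.17, edgeR adjusted p = 0.0413; 0.145 without control 1 and 0.342 without the mutant), also in 2 of 3 libraries. Among the 16 members tested, the 2 calls higher and 5 lower stand beside 12.7% and 9.88% of all genes tested.

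The calls within the mesenchyme came from comparing cells of the same library. In an edgeR fit without the library as a term, 0 members were called in perimysial cells, 1 in osteogenic cells and 0 in midline cells. With clusters in place of marker gates, 2 of the 6 perimysial calls (*Foxp1* and *Foxq1*) and 1 of the 7 osteogenic calls (*Foxq1*) were kept, and 3 other members and not *Foxq1* were called in the midline. The midline call of *Foxq1* was also lost with 1 more marker in each gate and under DESeq2.

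The Foxo list had 4 of 17 genes higher and 4 lower in osteogenic cells, with a median of 0.05 beside -0.03 for all genes, and *Cdkn1a* led it at 2.73 on the log2 scale (SE 0.25, edgeR adjusted p = 1.62e-08). In perimysial cells 0 of 17 genes of the list were called by edgeR or DESeq2, and 3 had an unadjusted p under 0.05 in the edgeR fit (1 higher and 2 lower).

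**Figure D3:**
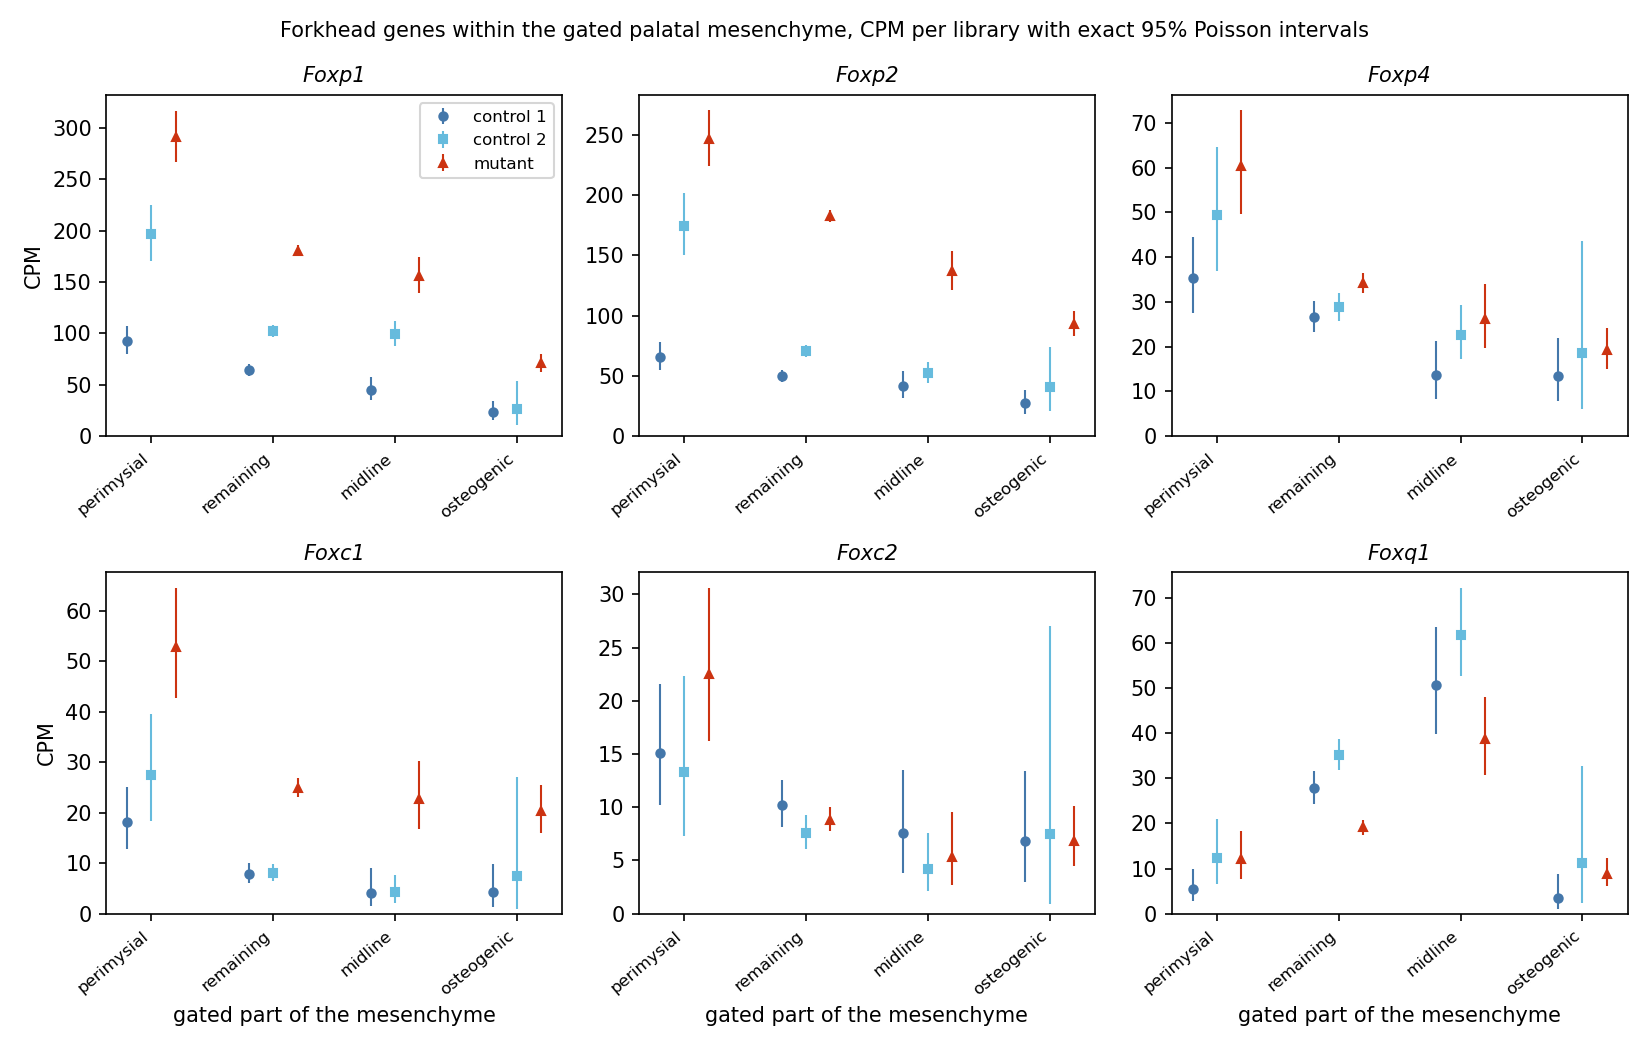
Points give the CPM of 6 forkhead genes in 4 gated parts of the palatal mesenchyme for each library, with exact 95% Poisson intervals. In each library *Foxp1*, *Foxp2*, *Foxp4*, *Foxc1* and *Foxc2* are higher in perimysial than in remaining cells and *Foxq1* is highest in the midline cells among these 4 parts, and the mutant triangles of *Foxp1*, *Foxp2* and *Foxc1* lie above both controls in all 4.

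Dividing mesenchymal cells were set against cells with at most 1 dividing marker, and *Foxm1* was higher in the dividing cells. It had 21.4, 25.7 and 20.4 CPM in dividing cells and 3.42, 1.34 and 1.36 CPM in non-dividing cells, a log2 fold change of 3.67 (SE 0.21, edgeR adjusted p = 5.72e-14). *Foxm1* passed the filter on low counts through its dividing levels, so a call in this direction was favoured in advance. The call was kept without that filter. The gate did not use *Foxm1* or its listed targets, but those genes are known to rise together in cells that divide. It counted markers per cell without scaling to depth, so the groups differed in depth. In control 1, control 2 and the mutant, dividing cells had a median of 11072, 6559 and 7450 UMIs. Non-dividing cells had 6410, 4078 and 3645.5. The part of depth in the differences between these groups was not tested. All 12 listed *Foxm1* targets were called higher, with a median log2 fold change of 3.47 beside -0.01 over all genes, led by the kinases *Aurkb* at 4.92, *Nek2* at 4.47 and *Plk1* at 4.46 and by the cyclin *Ccnb1* at 3.71. In neuronal cells, set against all gated mesenchyme, 11 of 12 targets were called lower, where 19.3% of all genes were. Their median was -2.24 beside -0.09 over all genes, and *Ccnb2* led them at -2.61. *Foxm1* lost its own neuronal call without the mutant (edgeR adjusted p = 0.624) and without control 2 (0.095).

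*Foxk2* and *Foxk1*, regulators of metabolism and of autophagy genes, were also higher in dividing cells. *Foxk2* had 20.7, 33.1 and 28.7 CPM against 12.7, 23.3 and 14.2, a log2 fold change of 0.71 (SE 0.13, edgeR adjusted p = 0.000106). *Foxk1* rose by 0.50 (SE 0.15, edgeR adjusted p = 0.0136; 0.492 without the mutant). *Foxe1* was called higher by 2.87 (SE 0.66, edgeR adjusted p = 0.00166) in 2 of 3 libraries, at a level of 1.06 to 2.41 CPM in dividing cells, so that this call rests on few UMIs. *Foxp2* fell by 0.33 (SE 0.09, edgeR adjusted p = 0.00621; 0.0727 without control 1) and *Foxq1* fell by 0.35 (SE 0.11, edgeR adjusted p = 0.0234; 0.282 without control 2). With 20 of 41 members passing the filter, 4 were called higher and 2 lower, beside 15.0% and 12.5% of 12761 genes. Of 18 Foxo list genes tested, 4 were higher and 3 lower, with a median of -0.04 beside -0.01.

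**Figure D4:**
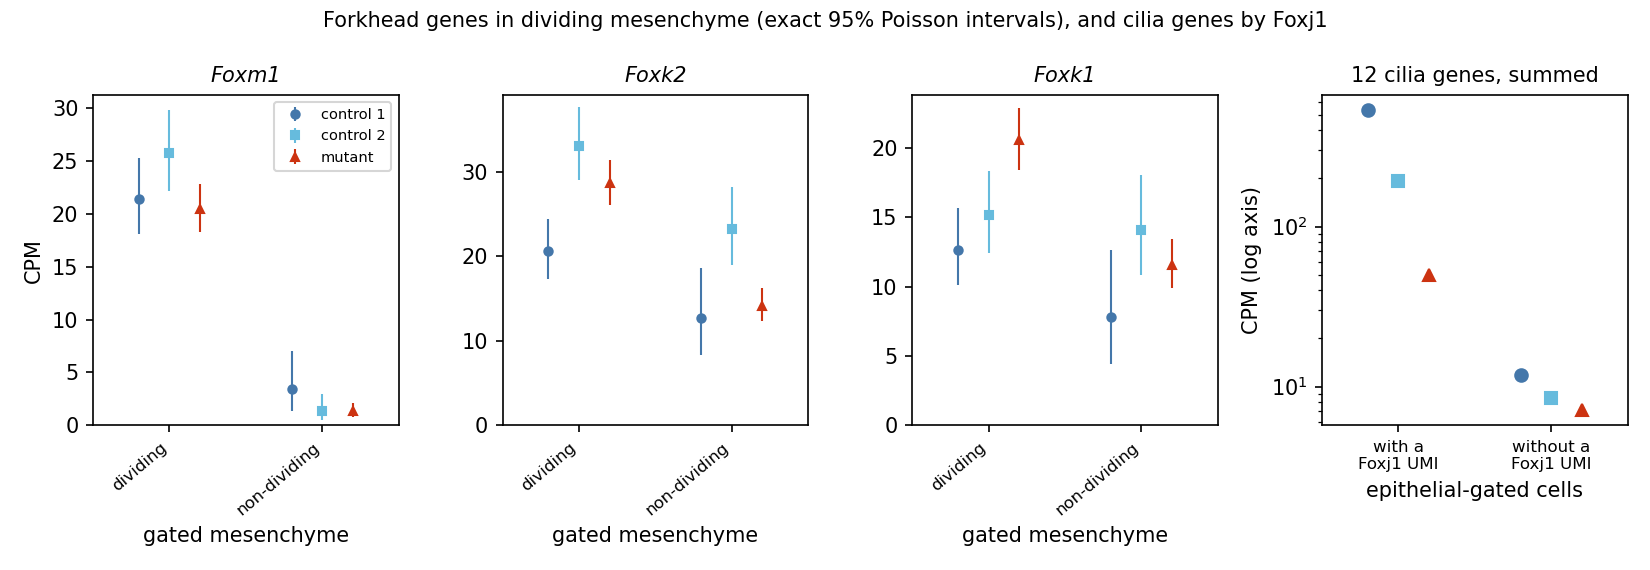
The first 3 panels give the CPM of *Foxm1*, *Foxk2* and *Foxk1* in dividing and non-dividing gated mesenchyme per library with exact 95% Poisson intervals, and the last gives, on a log axis, the summed CPM of 12 cilia genes in epithelial cells with and without a *Foxj1* UMI. *Foxm1* is between 20.4 and 25.7 CPM in dividing cells and under 4 CPM in the others, and the cilia genes are higher in cells with a *Foxj1* UMI in each library.

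The mutant was compared with the controls by values alone, since 1 mutant library allows no test of genotype. A gene is described as past the fold when its mean was at least 10 CPM, the mutant was above both controls or below both, and the log2 ratio of the mutant to the mean of the controls was at least 1 and exceeded the gap between the controls. In the mesenchyme, where the Cre is active, *Foxc1*, *Foxp2* and *Foxp1* were past the fold upward and no member downward, out of 15 members at 10 CPM. Over 8480 genes at that level, 0.531% were past the fold upward and 1.10% downward.

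*Foxp2* had 49.3 CPM in the mesenchyme of control 1 (exact 95% Poisson interval 45.6 to 53.1), 74.6 in control 2 (70.4 to 78.9) and 175 in the mutant (171 to 179). The log2 ratio was 1.53 beside a gap of 0.60 between the controls. *Foxc1* had 8.49 (7.02 to 10.2), 8.56 (7.19 to 10.1) and 25.6 CPM (24.0 to 27.3), a log2 ratio of 1.59 beside a gap of 0.01. *Foxp1* had 65.2, 109 and 177 CPM, a log2 ratio of 1.07 beside a gap of 0.74. The controls differed from each other for *Foxp1* and *Foxp2* by more than their counting intervals, so these intervals understate the error. Within the mesenchyme, the *Foxc1* ratio was 1.65 in the remaining, 2.45 in the midline, 1.85 in the osteogenic and 1.24 in the perimysial cells, and 1.68 and 1.60 in dividing and non-dividing cells. For *Foxp2* these ratios were 1.62, 1.55, 1.48, 1.20, 1.63 and 1.31, of which the perimysial one did not exceed the gap of 1.41 between the controls. In the tendon part *Foxp2* was past the fold upward, and *Foxc1* and *Foxp1* were not. *Foxp1* was not past it in the non-dividing cells either.

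The same genes were followed over the 9 types that held at least 10 cells in each library. The mutant lay above both controls for *Foxp2* in 8 of 9 types, by less than the gap between the controls in myogenic and endothelial cells. For *Foxp1* it did so in 6 of 9. The *Foxp1* ratio was under the gap in the epithelium (0.28 beside 0.29) and in the endothelium (0.54 beside 0.73). How often genes at large lay above both controls is not given. Both controls had a *Foxc1* UMI in the mesenchyme, epithelium, endothelium and cartilage, and the mutant was above both in each of these. The largest *Foxp2* ratio was in erythroid-gated cells, with 10.99, 12.64 and 102.4 CPM, a log2 ratio of 3.12 beside a gap of 0.20. The median ratio over all genes was 0.81 in those cells, where 3 of 6 members at 10 CPM were past the fold upward and 1 downward. In cartilage 6 of 16 members were past the fold upward, *Foxp1*, *Foxp2* and *Foxc1* among them, and 0 downward. The cartilage levels came from 20 cells in either control and 193 in the mutant. No share of all genes past the fold is given for erythroid or cartilage cells, so these counts stand without a background. In macrophage-gated cells *Foxp2* had 2.42, 8.42 and 25.0 CPM from 1, 5 and 23 UMIs. In the epithelium *Foxp2* had 29.5, 41.8 and 111 CPM, and in glia 27.6, 22.4 and 144. The part of free RNA or of an effect of the whole library in these differences was not tested.

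*Foxq1* went the other way in the mesenchyme, at 25.4, 38.0 and 18.7 CPM, a log2 ratio of -0.73 beside a gap of 0.58, and was not past the fold. It was past the fold downward in the non-dividing cells and in the tendon part of the mesenchyme. The Foxo genes differed little: the mesenchymal log2 ratio was 0.10 for *Foxo1*, 0.08 for *Foxo3* and -0.14 for *Foxo4*. *Foxm1* had a ratio of -0.24 in the mesenchyme as a whole and of -0.20 in its dividing cells, beside a gap of 0.26 there. *Foxd2*, below the level for a named gene, had 6 and 5 UMIs in the controls and 76 in the mutant over all kept cells, or 0.286, 0.199 and 1.40 CPM.

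In the perimysial cells 2 members were past the fold upward, *Foxc1* at 1.24 beside a gap of 0.60 and *Foxp1* at 1.11 beside a gap of 1.08. The background was 1.20% of 8608 genes upward and 2.44% downward. Neither passed when control 1 was left out and the ratio taken to control 2 alone, while 4 members passed without control 2.

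In the epithelium *Foxp2* was past the fold upward, at a log2 ratio of 1.65 beside a gap of 0.50, and *Foxj1* and *Foxe1* downward, at -2.69 beside 1.30 and -1.19 beside 0.29. Over 8811 genes 0.340% were past the fold upward and 1.52% downward. *Foxj1* was lower in the mutant both among periderm cells (15.2, 23.1 and 3.33 CPM) and among the other epithelial cells (105, 36.2 and 9.87 CPM). Beside this level stand the 25 of 203, 32 of 366 and 18 of 502 epithelial cells with a *Foxj1* UMI. *Foxa1* had a ratio of -0.60 beside a gap of 0.84 and *Foxq1* of -0.89 beside 0.23. Among periderm cells *Foxe1*, *Foxj1* and *Foxq1* were past the fold downward. Among the other epithelial cells *Foxm1* and *Foxj1* were, and *Foxe1* was not. In cells brought down to 2000 UMIs the *Foxp2* ratio was 0.97, under the fold. Without control 2, 6 members were past the fold in the epithelium in place of 3.

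**Figure D5:**
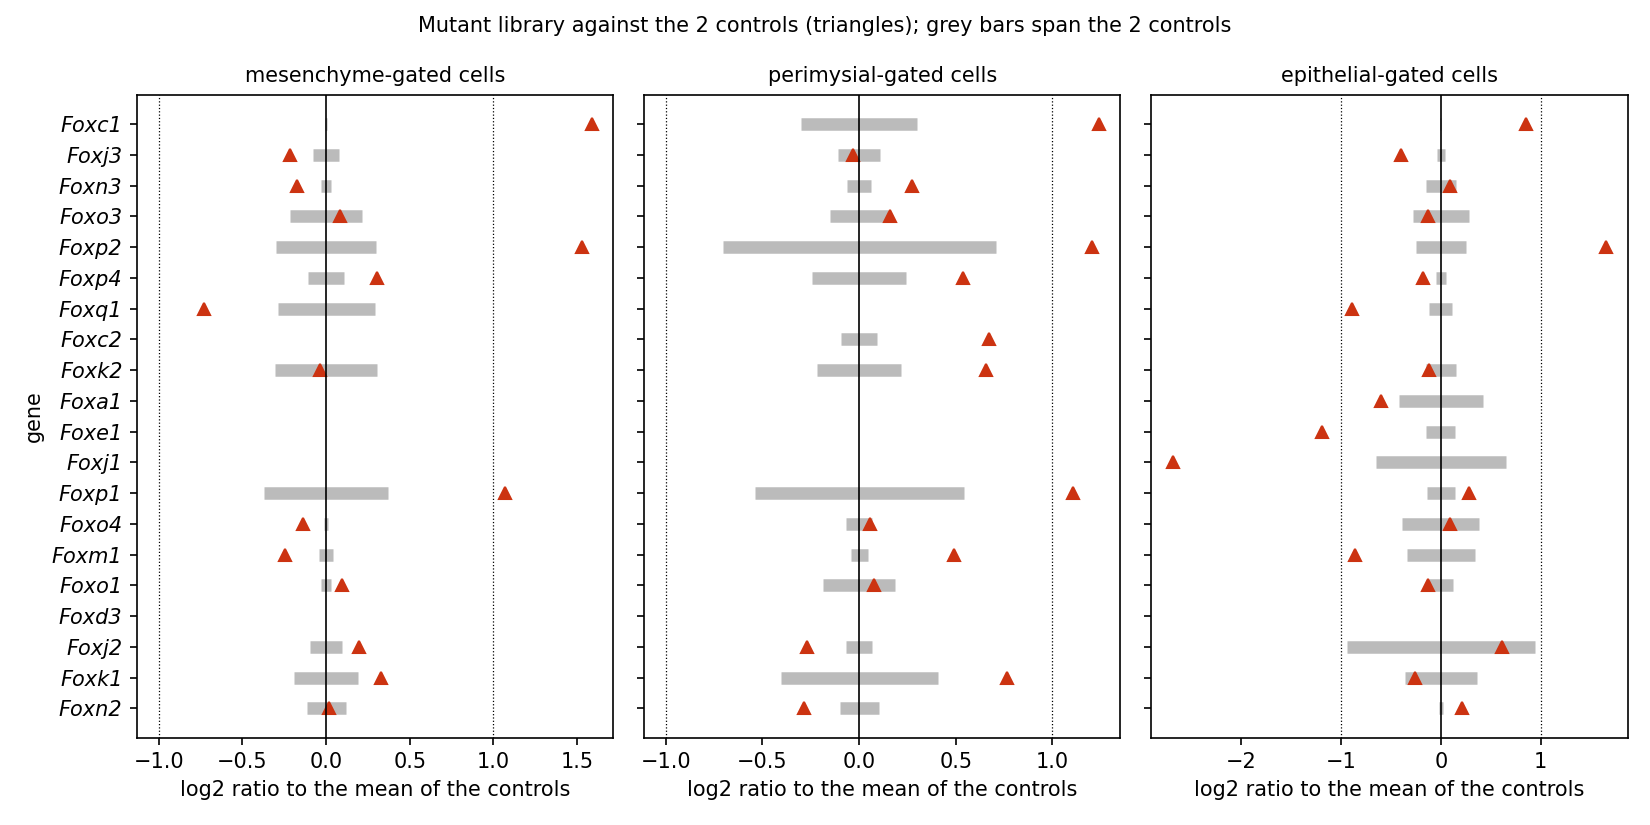
Triangles give the log2 ratio of the mutant to the mean of the controls for forkhead genes with a mean of at least 10 CPM in mesenchyme-, perimysial- and epithelial-gated cells, grey bars span the 2 controls around their mean, and dotted lines mark ratios of 1 and -1. *Foxp1*, *Foxp2* and *Foxc1* lie past 1 in the mesenchyme, where the bar of *Foxc1* is too short to see, and *Foxj1* and *Foxe1* lie past -1 in the epithelium.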

How the data were processed

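Single-cell suspensions of E14.5 soft palate were sequenced by the authors on the 10x 3′ platform, and the counts they deposited are UMIs by gene and barcode, without normalization. The file header names Cell Ranger 4.0.0 and the submitters' processing notes name Cell Ranger 3.1.0 and mm10, while the annotation release is not given in the sources used here. The authors' later aggregation and integration of the libraries are not part of these counts.

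Cells were kept from 500 detected genes and up to 10% of mitochondrial UMIs. Scrublet (scanpy 1.11.5) made no call of its own in any library, so the highest scores were left out at 0.8% per 1000 barcodes. Gates took a type's cells with at least 3 markers and 5 marker UMIs per 10000 (erythroid 500 per 10000, mesenchyme 10 per 10000 and no other gate, tendon 2 markers), and cells in several gates were left out. Dividing cells had at least 4 dividing markers and non-dividing cells at most 1. The gate limits were set after marker counts had been seen.

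UMIs were summed per type and library in Python 3.11.15 (numpy 2.4.6, scipy 1.17.1, pandas 2.3.3). Sums of at least 10 cells were tested with edgeR 4.0.16 in R 4.3.3 (quasi-likelihood test, TMM factors, library as a term, filterByExpr, Benjamini-Hochberg adjustment over all genes tested, called at an adjusted p of at most 0.05), and the fit was tested on simulated data. DESeq2 1.42.0 was an alternative. A p-value here sets the difference between cell types against its scatter over the libraries, after differences between whole libraries are taken out. All gated types of a fit share 1 estimate of that scatter, and the mural test had 2 libraries. The libraries are 2 controls and 1 mutant, so they are not replicates of 1 condition. For the mutant no test was possible. For log2 ratios, 0 UMIs were replaced by 3. CPM has exact Poisson and shares exact Clopper-Pearson intervals at 95%, covering counting error only.

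Members with a mean of at least 10 CPM over the libraries in a gated type are given with values, others by their highest level, except for 1 member that is not reported here. From the lists, up to 4 called genes with the largest change are named. The members, markers and lists were chosen with earlier results of these data known. Gene positions are from GENCODE M21 (GRCm38) and promoter sequences from RefSeq (GRCm38.p6). Only the first 250 bases of each entry were searched, on both strands.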

Additional observations from a re-analysis of the deposited data

Results flagged for a closer look

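For 7 forkhead genes, the difference between 2 kinds of cells went one way in both control libraries and the other way in the mutant library. With 1 mutant library these differences between genotypes were not tested. The share of all genes with such a pattern is not given, so the 7 genes stand without a background. No counting intervals are given either, and some values are small, such as 0.01 for *Foxk1* in control 1. Each value is a log2 ratio of CPM within a library.

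Between epithelium and mesenchyme, *Foxk1* stood at 0.01 and 0.35 in the controls and at -0.41 in the mutant, and *Foxc1* at 0.48 and 0.46 in the controls and at -0.27 in the mutant. *Foxc1* in the mesenchyme was 25.6 CPM in the mutant and 8.49 and 8.56 CPM in the controls. Between myogenic cells and mesenchyme, *Foxp1* stood at 0.85 and 0.50 in the controls and at -0.37 in the mutant, and between endothelium and mesenchyme *Foxm1* stood at 1.54 and 0.40 in the controls and at -0.09 in the mutant.

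Between perimysial and remaining mesenchyme, *Foxk1* had -0.60 and -0.12 in the controls and 0.09 in the mutant, *Foxk2* had -0.38 and -0.71 in the controls and 0.16 in the mutant, *Foxm1* had -0.14 and -0.50 in the controls and 0.39 in the mutant, and *Foxn3* had -0.17 and -0.04 in the controls and 0.35 in the mutant. *Foxj2* went the other way, with 0.58 and 0.33 in the controls and -0.16 in the mutant. Between midline and remaining mesenchyme *Foxm1* had -0.43 and -0.31 in the controls and 0.20 in the mutant. Between dividing and non-dividing mesenchyme *Foxn3* had -0.14 and -0.08 in the controls and 0.11 in the mutant.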

How the results depend on the processing

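Of 63 calls of named forkhead genes between cell types, 24 kept their direction and stayed past the threshold in every alternative that could be computed, among them *Foxa1*, *Foxe1*, *Foxj1* and *Foxo1* in epithelium, *Foxd3* in glia, *Foxo4* in myogenic cells, *Foxo1* in endothelium and *Foxm1* in dividing mesenchyme. The other 39 were lost at least once, most often without the library term (28), without control 2 (22), without the mutant (14), under DESeq2 (12) or with clusters (12). Leaving out the erythroid-gated sums, an alternative chosen after seeing the data, lost 1. The cause was not tested. Reversed in direction were *Foxo4* in neuronal cells, at -1.49 to 0.02 (0.0213 without the mutant), and, with clusters in place of gates, *Foxn3* (0.0039) and *Foxp4* (0.10) in osteogenic cells. Counts of called members moved by over 1.5 times as follows. Without the low-count filter they were 14 in epithelium, 3 in mural cells and 2 in the midline. DESeq2 called 5 in neuronal cells, 0 in the midline and 3 in dividing cells. Without the library term they were 0 in perimysial, 1 in osteogenic, 0 in midline and 1 in dividing cells. With clusters they were 2 in perimysial, 1 in osteogenic and 3 in midline cells, with 1 more marker in each gate 0 in the midline, and with the highest Scrublet scores kept 2 in mural cells. Leaving out 1 library gave 5 to 8 in epithelium, 6 to 9 in myogenic, 0 in mural, 1 to 2 in glial, 1 to 9 in neuronal, 2 to 6 in perimysial, 2 to 6 in osteogenic, 0 to 1 in midline and 4 to 6 in dividing cells.

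For the mutant, 3 members were past the fold in the mesenchyme without either control, and 2 as a mean over cells and in thinned cells. In perimysial cells the count was 0 to 4 without a control, 0 as a mean over cells, 1 with the highest Scrublet scores kept and 4 with clusters. In epithelium it was 4 to 6 without a control, 5 as a mean over cells and 5 in thinned cells. No paired analysis was possible because the labels give no pairs of control and mutant libraries. The mural cells could not be compared without control 1, without the mutant or with 1 more marker. Between cell types, *Foxj1* failed the filter on low counts without either control and with 1 more marker, *Foxc2* without the mutant and with 1 more marker, and *Foxc1*, *Foxj2* and *Foxk1* without the mutant, so these fits gave no value for them. Low counts limit the glial, neuronal and mural values most.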

Other observations

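Cells that passed more than 1 gate were left out of the comparisons. In control 2 they numbered 8, and 1 of them held 47 UMIs of *Foxj1*, together with 30 UMIs of the 12 cilia genes, which is 657 CPM of that cell's UMIs. In control 1, 2 of the 25 such cells held 12 *Foxj1* UMIs and 11 UMIs of the cilia genes. In the mutant, 2 of 69 such cells held 2 *Foxj1* UMIs and no UMI of the cilia genes. Of the mesenchymal cells with 2 or more *Foxj1* UMIs, the controls had 0 and the mutant had 1, with 5 *Foxj1* UMIs and 4 UMIs of the cilia genes.

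*Foxa3*, known to act in hypertrophic cartilage and in endoderm, had 16 UMIs in the mutant library, 13 of them in its 193 cartilage-gated cells at 6.61 CPM (exact 95% Poisson interval 3.52 to 11.3). Both controls had 0 UMIs in 20 cartilage-gated cells each, where the upper limits of the same interval were 17.4 and 21.0 CPM, so a difference was not detectable at this depth. *Foxn4* had 21, 7 and 2 UMIs in control 1, control 2 and the mutant.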
